A study of Arabidopsis thaliana with 12 samples.

Results

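Described here are 7 Arabidopsis thaliana genes of the cell wall and its phenolic chemistry: the class III peroxidase genes AT5G19890 and Prx37 (AT4G08770), the extensin-like gene AT1G26250, TBL45 (AT2G30010), the glucosyltransferase gene UGT72E1 (AT3G50740), AT5G62360 of the pectin methylesterase inhibitor family and the pectin lyase-like gene AT5G63180. They were chosen by name from the strongest decreases with abscisic acid (ABA), a plant hormone that rises in drought and holds seeds dormant, in these same arrays. They are 7 of 8604 tested genes with a probe set of their own, and each was read by 1 probe set. The arrays held 4 groups of 3 biological replicates: rop10-1 seedlings given ABA, rop10-1 seedlings given DMSO as a mock treatment, wild-type Ws seedlings given ABA and Ws seedlings given the mock treatment. rop10-1 is a mutant of ROP10, a small GTPase of plants. All groups were whole 7-day seedlings shaken in liquid medium with sucrose, and ABA was given at 1 µM for 4 hours. The series asks how ROP10 shapes the response of transcripts to ABA.

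The plant wall is a network of cellulose, hemicelluloses, pectin and structural proteins that sets how far a cell can expand. Class III peroxidases are secreted enzymes that use hydrogen peroxide to cross-link phenolics and wall proteins, and extensins are hydroxyproline-rich proteins that form a cross-linked scaffold. Pectin methylesterases remove methyl groups from pectin and are held back by inhibitor proteins, and lyases and polygalacturonases cut the pectin chain.

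The deposited signal of each array had a 2% trimmed mean of 500.04 to 500.048. The median signal was 180.2 to 195.6 on ABA arrays and 184.5 to 203.3 on mock arrays. Precision is limited by the number of arrays. The log2 ratio of 3' to 5' signal of ubiquitin, a measure of RNA integrity and labelling, was 0.638 to 0.881 on ABA arrays and 0.818 to 1.11 on mock arrays. It was lower with ABA in 6 of 6 pairs of the same number and genotype, and in Ws the ABA arrays, at 0.638 to 0.752, did not overlap the mock arrays. The same ratio overlapped between the treatments for actin and GAPDH. For actin it was 2.06 to 2.60 on ABA arrays and 2.10 to 2.66 on mock arrays. For GAPDH it was -0.57 to -0.28 on ABA arrays and -0.53 to -0.28 on mock arrays. The part of these ratios in the differences with ABA was not tested. All 6 tested markers of ABA induction rose in rop10-1 and all 6 rose in Ws (limma, adjusted p under 0.05). Since whole seedlings were used, fewer cells of a type and less RNA per cell cannot be told apart in any value below.

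The wall genes stood lower with ABA in both genotypes. On every ABA array each of the 7 genes had a lower signal than on any mock array of the same genotype. Because the genes were picked for these decreases, their differences with ABA are described without a test. Differences are of log2(signal + 16), which understates the change of low signals.

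AT5G19890 encodes a class III peroxidase. Its signal was 348.8, 83.9 and 83.8 on the rop10-1 ABA arrays (replicates 1, 2 and 3), against 1640.8, 1104.3 and 570.2 on the rop10-1 mock arrays. On the Ws ABA arrays it was 249.2, 118.8 and 56.3, against 1443.6, 635.4 and 519.8 on the Ws mock arrays. Replicate 1 was the highest in each of the 4 groups, and the groups with and without ABA did not overlap. The Ws signal of 56.3 lay below the 30th percentile of signals on its array, 65.9. The log2 difference was -2.74 in rop10-1 and -2.54 in Ws, each with an SE of 0.60. With the replicate number as a block in the fit the SE was 0.20.

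Prx37 is the second peroxidase gene, and its product has been tied in Arabidopsis to phenolics bound in the wall. It read 391.0, 212.4 and 217.1 on the rop10-1 ABA arrays, against 1722.3, 1201.7 and 1399.9 on the rop10-1 mock arrays. It read 453.9, 210.5 and 279.7 on the Ws ABA arrays, against 1574.2, 994.3 and 1224.7 on the Ws mock arrays. Replicate 1 was again the highest in every group. The ABA signal was 19.0% of the mock mean in rop10-1 and 24.9% in Ws, with log2 differences of -2.37 and -1.99 (SE 0.29 each).

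AT1G26250 encodes an extensin-like protein. Its signals with ABA were 91.6, 58.5 and 57.8 in rop10-1, against 814.8, 704.2 and 464.6 in rop10-1 mock seedlings. In Ws they were 60.0, 62.7 and 68.4 with ABA, against 305.8, 318.6 and 670.5 in mock seedlings. The 6 ABA signals lay close together in both genotypes, while the mock signals spread over a wider range. Apart from 91.6, the ABA signals lay near or below the 30th percentile of signals, which was 63.3 to 72.7 over the ABA arrays. Low signals are measured less exactly. The mean with ABA was 10.5% of the mock mean in rop10-1, a log2 difference of -2.98 (SE 0.29), and 14.8% in Ws, a log2 difference of -2.40 (SE 0.29).

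TBL45 belongs to the trichome birefringence-like family, whose characterised members add acetyl groups to wall polysaccharides. Its signal was 127.3, 101.3 and 99.5 with ABA in rop10-1, against 388.2, 584.4 and 474.6 in rop10-1 mock seedlings. It was 148.4, 109.2 and 110.1 with ABA in Ws, against 415.2, 694.7 and 534.1 in Ws mock seedlings. The genotypes were close to each other: the ABA mean was 22.7% of the mock mean in rop10-1 and 22.4% in Ws. The log2 differences were -1.98 and -2.01 (SE 0.20 each).

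UGT72E1 encodes an enzyme that attaches glucose to the aldehyde precursors of lignin. It read 1076.0, 409.6 and 476.1 on the rop10-1 ABA arrays, against 1631.0, 1246.6 and 1368.8 on the rop10-1 mock arrays. It read 365.2, 294.8 and 188.7 on the Ws ABA arrays, against 1507.4, 1378.5 and 1172.3 on the Ws mock arrays. The mock signals of the genotypes overlapped, and every rop10-1 ABA signal was above every Ws ABA signal. The mean with ABA was 46.2% of the mock mean in rop10-1, against 20.9% in Ws. The log2 differences were -1.22 in rop10-1 and -2.23 in Ws (SE 0.32 each).

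AT5G62360 belongs to the family of pectin methylesterase and invertase inhibitors. Its signals were 19.4, 18.8 and 34.5 with ABA in rop10-1, against 291.2, 318.0 and 236.5 in rop10-1 mock seedlings. They were 48.6, 59.4 and 71.7 with ABA in Ws, against 190.5, 305.0 and 343.1 in Ws mock seedlings. Here the order of the genotypes with ABA was opposite to that of UGT72E1: every rop10-1 signal was below every Ws signal. The rop10-1 ABA signals also lay below the 30th percentile of signals, which was 63.3 to 72.7 over the ABA arrays, and low signals are measured less exactly. Of the Ws ABA signals, 48.6 and 59.4 lay below it too. The log2 difference with ABA was -2.90 in rop10-1 and -1.93 in Ws (SE 0.23 each), and the mean with ABA was 8.60% of the mock mean in rop10-1 and 21.4% in Ws.

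AT5G63180 encodes a protein of the pectin lyase-like superfamily, which holds enzymes that cut pectin. It read 97.9, 36.9 and 38.0 on the rop10-1 ABA arrays, against 379.3, 306.2 and 306.3 on the rop10-1 mock arrays. It read 89.9, 68.7 and 83.6 on the Ws ABA arrays, against 311.7, 326.0 and 377.4 on the Ws mock arrays. Replicate 1 of the rop10-1 ABA group stood apart from the other two of its group and overlapped the Ws range. The rop10-1 ABA signals of 36.9 and 38.0 lay below the 30th percentile of signals, which was 63.3 to 72.7 over the ABA arrays. Low signals are measured less exactly. The log2 differences with ABA were -2.33 in rop10-1 and -1.88 in Ws (SE 0.25 each). Over the alternatives other than leaving out single arrays they were -2.65 to -1.73 in rop10-1 and -2.06 to -1.47 in Ws.

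**Figure D1:**
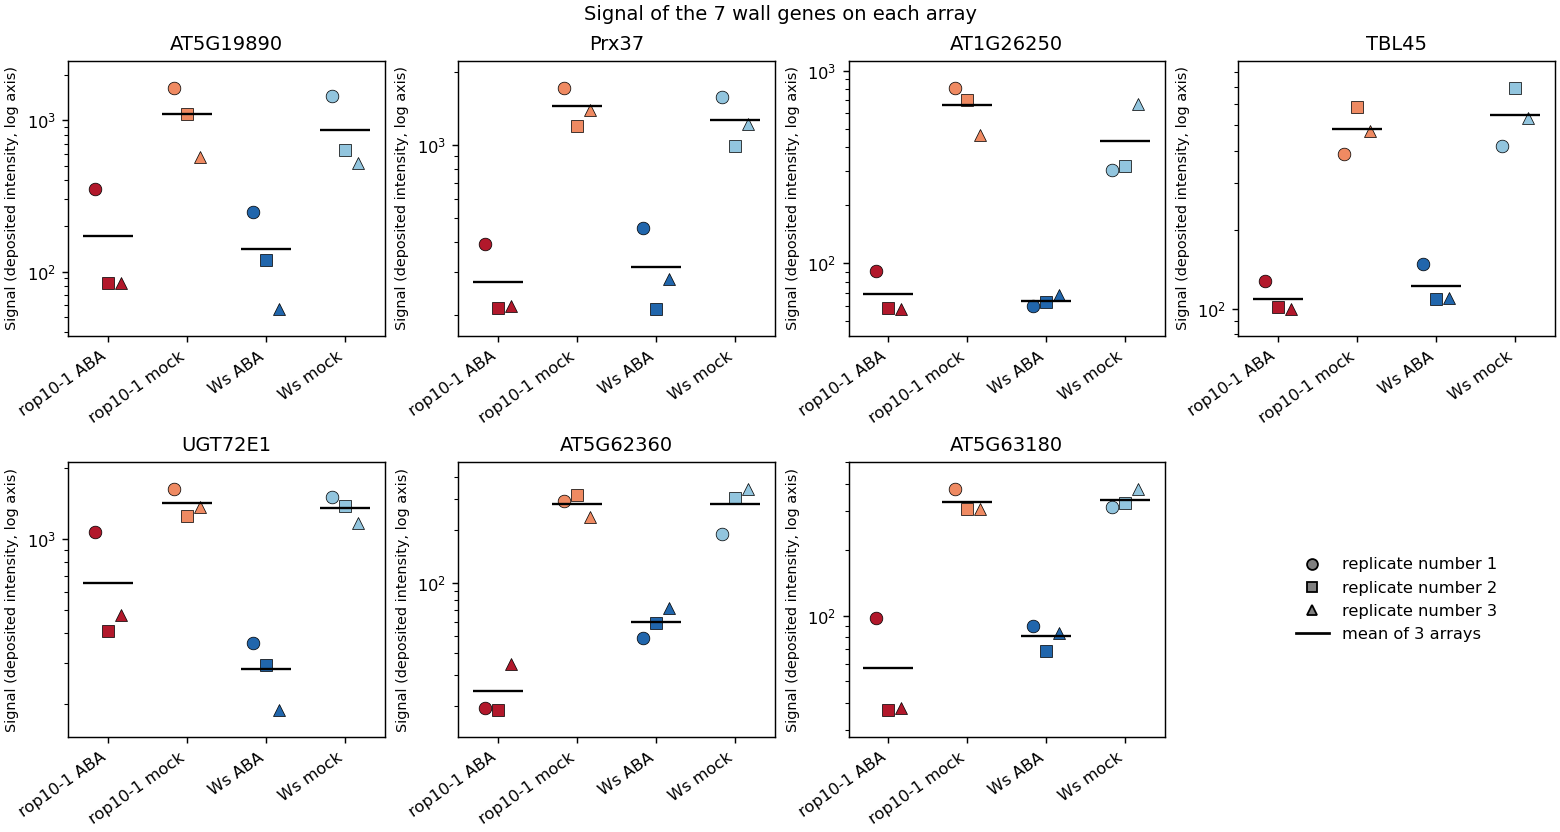
Signal of the 7 wall genes on each of the 12 arrays (deposited intensity, log axis), by group. Marker shapes give the replicate number and bars the mean of 3 arrays. In every panel all ABA arrays lie below all mock arrays of the same genotype.

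**Figure D2:**
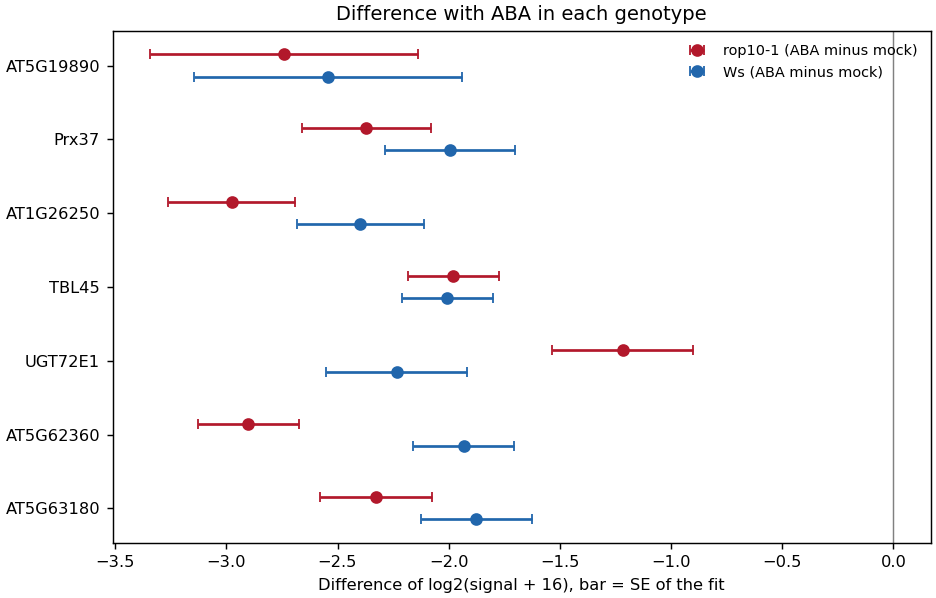
Difference of log2(signal + 16) between ABA and mock arrays (horizontal axis) for each gene, in rop10-1 and in Ws. Points are the fitted differences and bars their SE. UGT72E1 is the gene with the smallest decrease in rop10-1, at -1.22, and AT5G62360 shows -2.90 in rop10-1 and -1.93 in Ws.

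All 7 genes were among the called decreases in rop10-1, where 2.51% of the 15923 tested probe sets fell, and in Ws, where 2.49% fell (adjusted p under 0.05). In the average over genotypes 7.34% fell and 8.21% rose. ABA arrays all below mock arrays were seen for 15.1% of probe sets in rop10-1 and 11.6% in Ws. Since these contrasts chose the genes, the counts of the 7 are not evidence about them. Among genes with called, non-overlapping decreases and a probe set of their own, ordered from the strongest, the 7 held places 2 to 52 of 200 in rop10-1 and places 2 to 14 of 200 in Ws. In Ws the gene at the tenth place, AT5G28630, had a log2 difference of -1.97, and AT5G62360 followed directly at -1.93. In rop10-1 the tenth and eleventh places were held by BZIP61 at -2.12 and EXPA8 at -2.12, neither one of the 7, and TBL45 came later at -1.98.

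The genotypes were then compared. The average of rop10-1 minus Ws over both treatments is separate from the contrasts that chose the genes, and none of the 7 passed its test, in which 0.0377% of all probe sets were called (limma, Benjamini-Hochberg). At an unadjusted p under 0.05 there were 2, UGT72E1 and AT5G62360, and 9.57% of all tested probe sets were under it. UGT72E1 was higher in rop10-1 by 0.57 on the log2 scale (SE 0.22, 95% interval 0.085 to 1.06, adjusted p = 0.465, limma). AT5G62360 had a log2 difference of -0.44 (SE 0.16, 95% interval -0.80 to -0.090, adjusted p = 0.444, limma). With the block these adjusted p were 0.0759 and 0.130 by limma. Without replicate 1 of the rop10-1 ABA group the difference of UGT72E1 was 0.36. That of AT5G62360 was -0.63 with a pseudocount of 1 and -0.23 with a pseudocount of 64.

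For the other genes the average difference between rop10-1 and Ws had an interval that held 0. It was 0.26 for AT5G19890 (95% interval -0.66 to 1.19), 0.0083 for Prx37 (-0.44 to 0.46) and 0.36 for AT1G26250 (-0.075 to 0.80). It was -0.15 for TBL45 (-0.47 to 0.16) and -0.26 for AT5G63180 (-0.65 to 0.13). The interval of AT5G19890 was the widest of the 7. With the block its SE was 0.14 instead of 0.43, and the adjusted p was 0.362 by limma. TBL45 was lower in rop10-1 in 6 of 6 pairs of the same number and treatment, by 0.093 to 0.24 on the log2 scale. Its adjusted p was 0.780 by limma and 0.612 with the block. Neither fit paired the arrays by both number and treatment, so neither these p nor the interval of TBL45 measures how closely the pairs agreed. A p above the threshold does not show that the genotypes were equal.

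Under ABA alone, 0.0188% of probe sets were called between rop10-1 and Ws, and none of the 7. UGT72E1 differed by 1.08 (SE 0.32, 95% interval 0.39 to 1.77) with an adjusted p of 0.426 by limma, or 0.0571 with the block. AT5G62360 differed by -0.93 (SE 0.23, 95% interval -1.43 to -0.43) with an adjusted p of 0.393 by limma, or 0.0668 with the block. These are the 2 genes of the 7 whose ABA arrays did not overlap between the genotypes, as was the case for 10.9% of all tested probe sets. The ABA arrays also entered the choice of the genes, so these values are not independent of it. Without replicate 2 of the rop10-1 ABA group and with the block, UGT72E1 passed under ABA (1.33, adjusted p = 0.00594, limma, among 375 calls) and in the average over treatments (0.70, adjusted p = 0.0158, limma, among 626 calls). No other fit with the block and 1 array left out called any of the 7 between the genotypes. Replicate 2 held the lowest UGT72E1 signal of the rop10-1 ABA group, 409.6, and replicate 1 the highest, 1076.0. Without replicate 1 of that group and with no block the difference under ABA was 0.66 (adjusted p = 0.604, limma). These 2 fits differ in the block as well as in the array left out. For AT5G62360, whose rop10-1 ABA signals are low, the difference under ABA was -1.31 with a pseudocount of 1 and -0.49 with a pseudocount of 64.

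In mock seedlings 0.0314% of probe sets were called between rop10-1 and Ws, and none of the 7. The largest of their differences was that of AT1G26250 at 0.65 (SE 0.29, 95% interval 0.031 to 1.28, adjusted p = 0.996, limma). Its mock arrays overlapped between the genotypes, as they did for each of the 7, while 9.4% of tested probe sets had mock arrays that did not. UGT72E1 and AT5G62360 differed in mock seedlings by 0.063 (SE 0.32) and 0.041 (SE 0.23).

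The difference between the ABA responses of rop10-1 and Ws was tested as an interaction, which called 0% of probe sets. It called 0 at the adjusted threshold by limma, with or without the block, and 301, or 1.89%, had an unadjusted p under 0.05, UGT72E1 and AT5G62360 among them. The interaction was 1.02 for UGT72E1 (SE 0.45, adjusted p = 1.00, limma) and -0.97 for AT5G62360 (SE 0.32, adjusted p = 1.00, limma). It was 0.60 for UGT72E1 without replicate 1 of the rop10-1 ABA group, and -1.35 or -0.52 for AT5G62360 with a pseudocount of 1 or 64. Within each replicate number UGT72E1 retained more of its mock signal in rop10-1: 66.0%, 32.9% and 34.8% in rop10-1, against 24.2%, 21.4% and 16.1% in Ws. AT5G62360 retained less in rop10-1: 6.66%, 5.91% and 14.6% in rop10-1, against 25.5%, 19.5% and 20.9% in Ws. These values share their arrays with the contrasts that chose the genes. UGT72E1 held place 52 in rop10-1 and 4 in Ws among the decreases, and AT5G62360 held place 3 in rop10-1 and 11 in Ws.

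**Figure D3:**
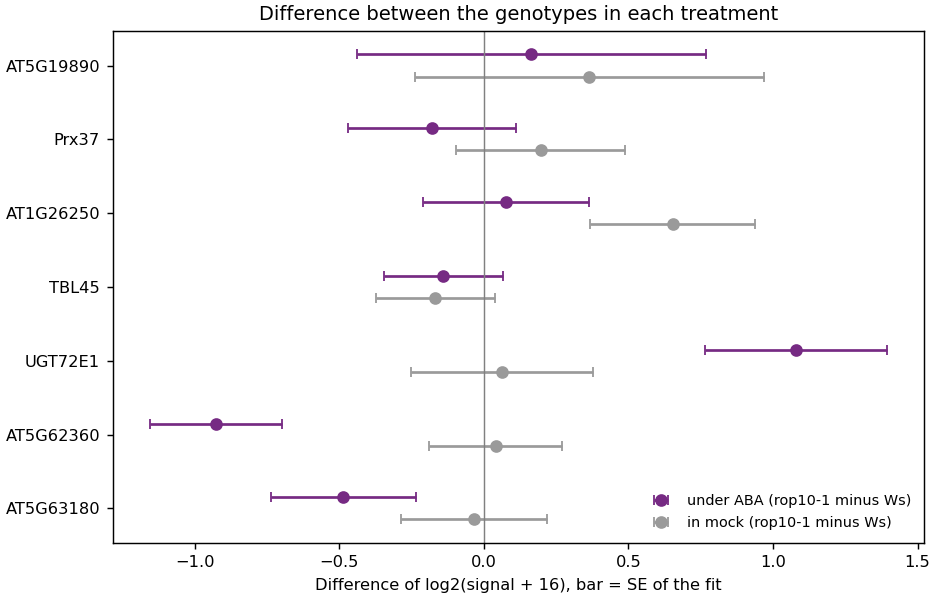
Difference of log2(signal + 16) between rop10-1 and Ws (horizontal axis) for each gene, under ABA and in mock seedlings. Points are the fitted differences and bars their SE. UGT72E1 lies at 1.08 and AT5G62360 at -0.93 under ABA, and both lie near 0 in mock seedlings.

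The spread within groups differed among the 7. The choice drew on called decreases without overlap, so it was not free of the size of this spread, but it did not use the replicate numbers. Arrays with the same replicate number deviated together across groups. For AT5G19890 the replicate number accounted for 91.2% of the variance within groups, and for Prx37 it accounted for 90.0%. The same share was 61.2% for UGT72E1, 38.8% for AT5G63180 and 38.4% for AT5G62360, against a median of 46.1% over all tested probe sets. It was 11.8% for TBL45 and 4.48% for AT1G26250. The share counts only deviations that a number has in common over all 4 groups. For TBL45, replicates 1 and 2 deviated in opposite directions with and without ABA, alike in both genotypes. In mock seedlings they deviated by -0.28 and 0.29 in rop10-1 and by -0.36 and 0.36 in Ws. With ABA they deviated by 0.20 and -0.089 in rop10-1 and by 0.26 and -0.13 in Ws. By this share the number was tied to the peroxidase genes more closely than to the extensin-like gene.

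For AT5G19890, replicate 1 lay 0.94 above its group mean on average, replicate 2 had a mean deviation of -0.20 and replicate 3 one of -0.73. Its SD within groups, 0.90 on the log2 scale, was larger than that of 99.2% of tested probe sets. Replicate 1 was also the highest of its group in 4 of 4 groups for Prx37 and for UGT72E1. AT5G62360 went the other way, with replicate 1 the highest in 0 of 4 groups and a mean deviation of -0.20.

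Deviations from the group means were correlated between genes over the 12 arrays, where arrays of the same number are alike across many genes, so the correlations are descriptive. Pearson's r was 0.87 between AT5G19890 and UGT72E1, 0.76 between AT5G19890 and Prx37 and 0.71 between Prx37 and UGT72E1. AT5G63180 followed these 3 genes at 0.60 to 0.76. AT5G62360 had r = -0.52 with AT5G19890, -0.52 with Prx37 and -0.45 with UGT72E1. TBL45 had no r above 0.28 with any of the other genes. The genes that were alike in their ABA decrease therefore did not all vary alike within groups.

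**Figure D4:**
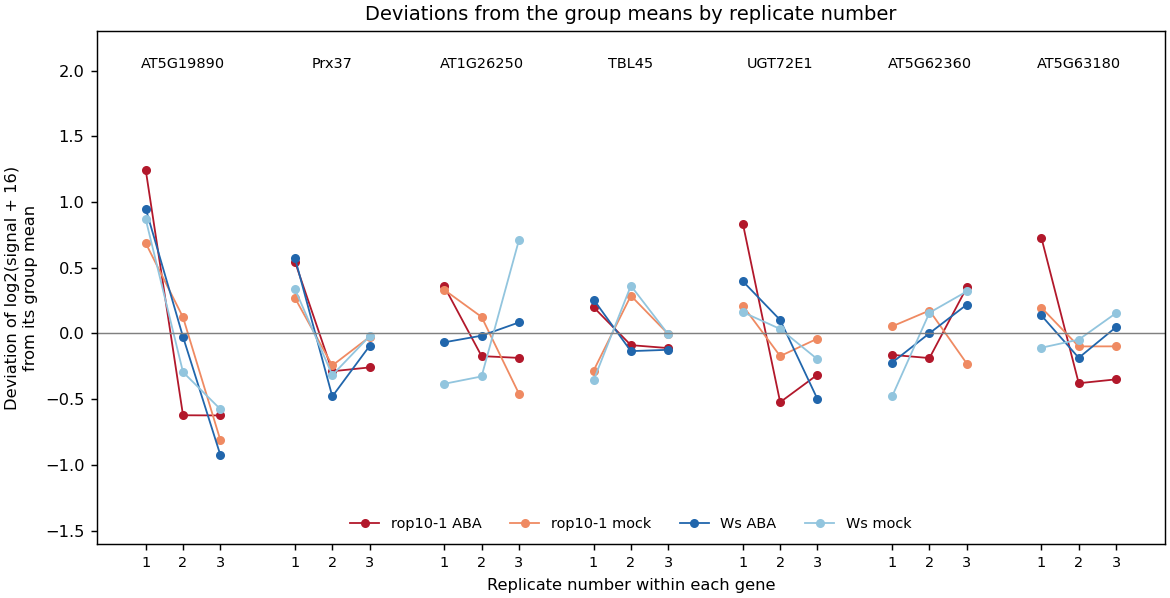
Deviation of log2(signal + 16) from its group mean (vertical axis) by replicate number, for each gene and group. Lines join the 3 arrays of a group. In AT5G19890, Prx37 and UGT72E1 replicate 1 is the highest in all 4 groups, and in AT1G26250 the groups do not run together.

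The genes whose log2 values ran most like those of each wall gene over the 12 arrays were found by Pearson's r, which mainly reflects the ABA difference. Prx37 was closest to AT4G08780, its neighbour, at r = 0.986, then to AT1G11670 at 0.977 and to the ERF-type gene AT5G61590 at 0.972. AT5G63180 was closest to AT2G45180 at 0.991, and Prx37 was the third on its list at 0.970. AT5G20050 headed the lists of both AT5G19890, at 0.967, and UGT72E1, at 0.973. TBL45 was closest to AT1G66940 at 0.988, AT1G26250 to AT4G18070 at 0.988 and AT5G62360 to AT3G45160 at 0.975.

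Close relatives and neighbours of the 7 genes were taken by family and position, apart from AT5G62340, which was named as a strong decrease of its family. AT4G08780, a peroxidase gene directly beside Prx37, fell with ABA: it read 132.5, 92.8 and 87.1 in rop10-1 ABA seedlings, against 462.5, 480.2 and 441.7 in rop10-1 mock seedlings. In Ws it read 197.6, 111.6 and 108.4 with ABA, against 556.7, 332.3 and 381.5 in mock seedlings. Its log2 difference was -2.01 in rop10-1 (SE 0.24, adjusted p = 0.000244, limma) and -1.52 in Ws (SE 0.24, adjusted p = 0.00177, limma). Prx37 and AT4G08780 are closely related copies, and whether the probes of each also bind RNA of the other was not tested.

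The other adjacent relatives showed smaller differences. AT5G62360 lies next to AT5G62350, and AT5G62340 is close by, all of the same inhibitor family. AT5G62350 had a log2 difference of -0.25 in the average over genotypes (SE 0.13, adjusted p = 0.240, limma). AT5G62340 fell by 0.67 in that average (SE 0.15, adjusted p = 0.0107, limma), against -2.42 for AT5G62360. In single genotypes AT5G62340 passed only in rop10-1. AT1G26240, the extensin-like gene beside AT1G26250, was among the low signals left out of the test. In a fit without that filter its average log2 difference was -1.10 (SE 0.23, adjusted p = 0.00993, limma), with -1.41 in rop10-1 and -0.78 in Ws. AT5G19880, the peroxidase gene beside AT5G19890, was near the bottom of the scale on all arrays, at 1.3 to 8.6.

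UGT72E2, which glucosylates the alcohol precursors of lignin, had an average log2 difference of -0.10 (SE 0.10, adjusted p = 0.557, limma). UGT72E3 was left out by the low filter, with signals of 6.9 to 54.2. Of the 14 nearest tested single-gene neighbours of the 7 genes, 1 rose and 1 fell in the average over genotypes. The one that fell was AT4G08780, and the one that rose was AT5G19875 near AT5G19890, by 0.92 (SE 0.21, adjusted p = 0.0108, limma). AT5G19875 passed in neither genotype alone. The other 12 ranged from -0.40 to 0.93 and did not pass, and 4 of the 14 passed with the block. Over all tested probe sets 8.21% rose and 7.34% fell in the average over genotypes, and 4455 of 15923 passed with the block. The neighbour counts are therefore near the shares over all probe sets.

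The wider families were counted without the 7 genes. Of 121 tested probe sets for 120 other genes in the wall lists, 20 rose and 24 fell in the average over genotypes, which is 16.5% and 19.8%, against 8.21% and 7.34% of all tested probe sets. The median log2 difference over these lists was -0.063, and over all tested probe sets it was -0.050. Wall genes other than the 7 therefore went in both directions. In rop10-1 alone 18 passed and in Ws alone 23, and with the block 39 and 41 did. The lists were drawn up with earlier results of these data known.

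Among 37 other class III peroxidases, 7 rose and 12 fell, with a median of -0.33. AT1G68850 rose by 2.32 (SE 0.20) and AT5G15180 by 1.99 (SE 0.18), with adjusted p of 8.16e-06 and 1.23e-05 by limma. AT1G68850 read 517.0, 989.9 and 815.6 in rop10-1 ABA seedlings, against 154.5, 103.0 and 116.8 in rop10-1 mock seedlings. It read 390.5, 530.5 and 774.0 in Ws ABA seedlings, against 147.1, 91.5 and 89.4 in Ws mock seedlings. Peroxidase genes thus held increases about as large as the decreases of AT5G19890 and Prx37. After AT4G08780, the strongest decrease was that of AT3G03670, at -1.54 (SE 0.21, adjusted p = 0.000266, limma).

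Of 27 other listed extensin and proline-rich protein genes 7 were tested. None of these 7 passed, with differences of -0.40 to -0.091 and a median of -0.28. AT1G26240, at -1.10 in the fit without the low filter, is not among them. Whether the probes of these 7 also bind RNA of related genes was not tested. With the block 2 of them fell. In the trichome birefringence-like family 1 of 18 probe sets rose and 6 fell. TBL36 fell by 1.02 (SE 0.12) and TBL28 by 0.79 (SE 0.13), and TBL26 rose by 0.51 (SE 0.12). In single genotypes TBL26 passed only in Ws, at 0.84 against 0.19 in rop10-1.

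The remaining tested genes of phenolic glucosides and lignin precursors went up or did not pass. Of 4 other UGT72 genes 1 rose, GT72B1, by 1.03 (SE 0.24, adjusted p = 0.0108, limma). Of 24 listed genes of monolignol synthesis and polymerisation only 4 were tested, of which 2 rose and none fell. CCR2, a cinnamoyl-CoA reductase of that pathway, rose by 1.47 (SE 0.33), and BGLU45, a glucosidase that frees monolignols from their glucosides, rose by 1.02 (SE 0.26). GT72B1, CCR2 and BGLU45 passed in neither genotype alone.

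Pectin genes were also mixed. In the methylesterase inhibitor family 3 of 15 rose and 2 fell, in the methylesterases 3 of 10 rose and 1 fell, in the polygalacturonases 3 of 12 rose and 1 fell, and in the pectate lyases 0 of 12 rose and 1 fell. The polygalacturonase gene AT1G48100 rose by 1.88 (SE 0.17) and AT1G10640 by 1.76 (SE 0.26). The methylesterase gene AT3G43270 rose by 1.36 (SE 0.20), and the methylesterase gene listed as ATPMEPCRD fell by 1.59 (SE 0.25). In single genotypes ATPMEPCRD passed only in Ws. AT4G24780, a pectate lyase gene, fell by 1.32 (SE 0.13, adjusted p = 1.96e-05, limma). AT4G25250 and AT4G25260, neighbouring inhibitor-family genes, went in opposite directions in the average over genotypes. AT4G25250 rose by 0.76 (SE 0.14) and AT4G25260 fell by 0.67 (SE 0.14). In single genotypes AT4G25250 passed only in Ws, at 1.16 against 0.37 in rop10-1. AT4G25260 passed only in rop10-1, at -0.87 against -0.47 in Ws. COB, which guides the deposition of cellulose, was the measured gene of primary wall cellulose and fell by 0.46 (SE 0.12, adjusted p = 0.0199, limma). COB passed in neither genotype alone, and without replicate 3 of the rop10-1 ABA group its adjusted p was 0.0549 by limma.

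**Figure D5:**
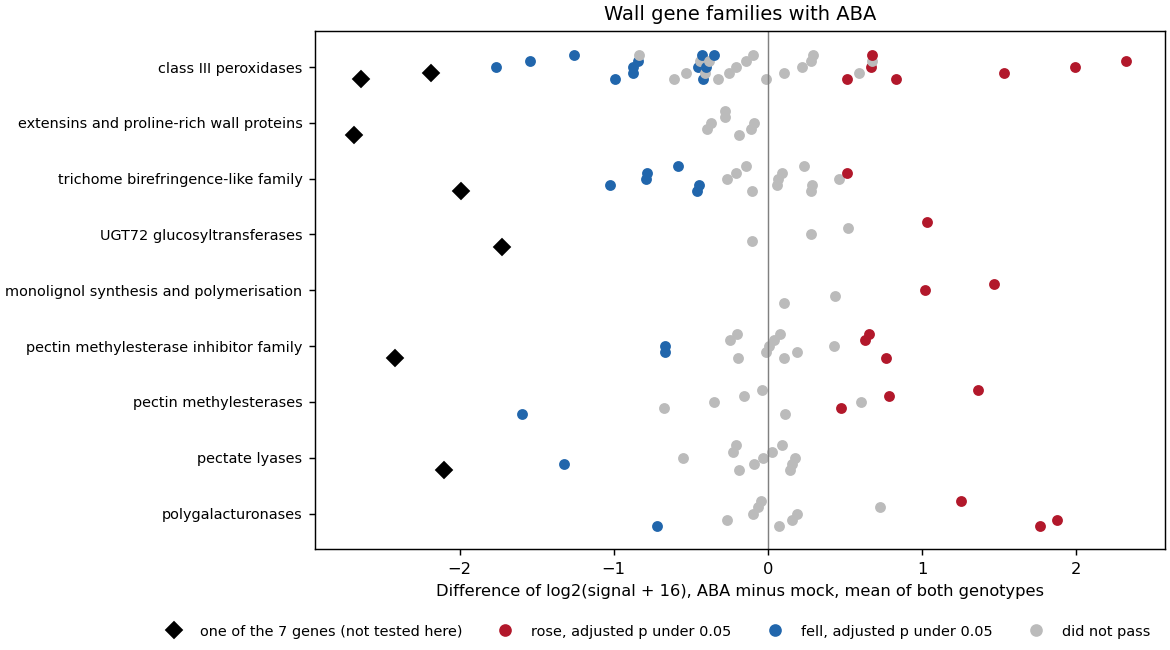
Difference of log2(signal + 16) between ABA and mock arrays, averaged over both genotypes (horizontal axis), for tested probe sets of 9 wall gene families. Each point is a probe set, coloured by its call, and black diamonds are the 7 genes described here. The other tested peroxidases span -1.76 to 2.32, and the other tested extensins stay between -0.40 and -0.091. AT1G26240, left out by the low filter, is not shown.

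Between rop10-1 and Ws none of the 121 other wall probe sets passed in the average over treatments by limma, and 13 had an unadjusted p under 0.05, or 10.7%, against 9.57% of all tested probe sets. Their differences ranged from -0.49 to 0.52. With the block 2 passed. None passed in mock seedlings, under ABA or in the interaction.

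None of the measured markers of organs and cell types was called with ABA or between the genotypes. Few of the listed markers were tested: 1 of 7 for root, 2 of 7 for root hair, 2 of 9 for leaf and 1 of 8 for endodermis. The root marker PYK10 had an average log2 difference with ABA of 0.014 (SE 0.069), with -0.085 in Ws and 0.11 in rop10-1, neither called. In Ws it read 12977.5 to 13465.8 with ABA, all below the mock arrays at 13757.6 to 14661.9, as for 11.6% of tested probe sets. In rop10-1 it read 12657.0 to 16185.5 with ABA and 12432.7 to 14415.9 in mock seedlings. The root hair markers EXPA7 and EXPA18 had average differences of -0.015 and 0.098. Of the leaf markers, LHCB4.1 differed by 0.021 and LHCB4.2 by -0.16, and the endodermis marker GSO1 had -0.012. The summed root hair signal was 296.4 to 344.5 in rop10-1 ABA seedlings and 269.6 to 289.4 in rop10-1 mock seedlings. It was 214.2 to 307.5 in Ws ABA seedlings and 209.3 to 336.5 in Ws mock seedlings, and none of these markers was at 0. The summed leaf marker signal was 13538.1 to 15912.9 in rop10-1 ABA seedlings and 14526.0 to 15697.7 in rop10-1 mock seedlings, and 14496.6 to 17726.1 in Ws ABA seedlings and 14647.3 to 19192.9 in Ws mock seedlings.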

How the data were processed

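Biotin-labelled cRNA from whole seedlings was hybridised to Affymetrix ATH1 arrays, per the labels. The deposited table gives a linear intensity for each probe set, made with GCOS 1.1.1 per the submitters' processing notes, and were used as deposited. Of 22810 probe sets, 13513 had a single gene in the platform table, 8730 had none listed and no probe set was assigned to ROP10. The check of the mutated gene was therefore not made. RefSeq's gene table (TAIR10.1) gave names and neighbour order. Promoter and protein sequences were not used here.

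The log2(intensity + 16) values were fitted with limma 3.58.1 in R 4.3.3 on all 12 arrays, with 1 mean per group and an intensity trend. The 64 controls and the 30% of probe sets with the lowest mean were left out, which left 15923. Tests were two-sided with Benjamini-Hochberg adjustment over all of them, and calls had an adjusted p under 0.05. The fit without the block was tested on simulated data for the ABA response in Ws. The simulated replicate effects were smaller than those seen for AT5G19890, so the simulation does not cover effects of that size.

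Arrays were grouped by title. Deviations from the group means were correlated between arrays of different groups. Arrays with the same number correlated at 0.215 to 0.711 over 18 pairs, and those of different numbers at -0.475 to 0.110 over 36 pairs. The deviations of each group sum to 0, so the second range is not independent of the first. The numbers come from the titles, and the sources used here do not say what they mark.

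The 7 genes and the lists were chosen with earlier results of these data known. Other genes named are up to 2 per list that rose most and 2 that fell most, listed relatives, tested neighbours and the 3 most similar genes. Alternatives were another pseudocount, other low filters, median centring, quantile normalization, array weights, no trend, the replicate block, a fit of only the groups compared and leaving out each array.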

Additional observations from a re-analysis of the deposited data

How the results depend on the processing

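With ABA, 432 of 449 recomputed values of the 7 genes kept their direction and their side of the threshold. The other 17 kept their direction and lost the call, all of them for AT5G19890 or for UGT72E1 in rop10-1 (limma). For AT5G19890 they came without replicate 1 or 2 of either mock group or replicate 2 or 3 of either ABA group (adjusted p 0.0552 to 0.0969, all alternatives 4.27e-06 to 0.0969). For UGT72E1 they came without replicate 1, 2 or 3 of the rop10-1 mock group, replicate 2 or 3 of the rop10-1 ABA group or replicate 2 of either Ws group, with no low filter or with the groups alone (adjusted p up to 0.146). The count of called members stayed at 5 to 7. It was 5 with the lowest 50% of probe sets left out, where 2 of the genes were no longer tested, and 5 in rop10-1 without replicate 1 or 2 of its mock group or replicate 2 or 3 of its ABA group, where AT5G19890 and UGT72E1 lost their calls. Between the genotypes and in the interaction 557 of 591 values kept their direction and side, and 34 turned direction without a call. The largest value after such a turn was -0.46, for AT5G19890 under ABA without replicate 1 of the rop10-1 ABA group, against 0.16 with all arrays. For rop10-1 against Ws averaged over treatments, Prx37 was -0.0041 with quantile normalization and -0.015 with median centring, and with each array left out it was -0.13 to 0.15, and AT5G19890 -0.047 to 0.50. In mock seedlings AT5G62360 was -0.11 with array weights and -0.20 to 0.20 with each array left out, TBL45 -0.35 to 0.014, UGT72E1 -0.042 to 0.15 and AT5G63180 -0.13 to 0.043. Under ABA AT1G26250 was -0.041 with array weights and -0.10 to 0.17 with each array left out, AT5G19890 -0.46 to 0.64 and Prx37 -0.45 to 0.11. The interaction of AT5G19890 was 0.018 with array weights and -0.82 to 0.27 with each array left out, and that of TBL45 -0.012 with quantile normalization and -0.15 to 0.21. The replicate block left all calls of the 7 genes as they were, and without replicate 2 of the rop10-1 ABA group it called 1 of them, UGT72E1, in the average genotype difference and 1 under ABA. Calls over all probe sets with the block were 2486 in rop10-1 and 2495 in Ws, against 1041 and 1042 without it, and 227 against 6 in the average genotype difference and 43 against 3 under ABA. For the other wall probe sets the ABA calls in Ws, 23 in the report, were 13 with the lowest 50% left out, where fewer probe sets were tested, 14 with the groups compared alone, 14 to 24 with each array left out (14 without replicate 3 of the Ws mock group) and 41 with the block. With the block and 1 array left out they were 28 to 45, among them 37, 39, 40, 42 and 43. In rop10-1 the 18 calls were 37 with array weights, 12 to 22 with each array left out and 39 with the block, and with the block and 1 array left out 24 to 40, among them 28, 32, 34, 36, 37 and 38. The 44 calls of the average were 29 with the lowest 50% left out. In the average genotype difference 2 passed with the block, and 0 to 2 with the block and 1 array left out. The causes of the other changes were not tested.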

Other observations

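Genes were also ranked by how closely their deviations from the group means followed those of each wall gene over the 12 arrays, a measure without the mean ABA difference. Arrays of the same number are alike across many genes, so these values are descriptive and come with no test. Prx37 was closest to UGT71C3 at r = 0.988, and another peroxidase gene, PRX52, was on its list at 0.966. PRX52 had log2 differences with ABA of 0.72 in rop10-1 and 0.63 in Ws, against -2.37 and -1.99 for Prx37. With an SE of 0.52 each, neither difference of PRX52 was called without the block. AT5G19890 was closest to DPL1 at 0.982, which had ABA differences of 0.0051 in rop10-1 and -0.21 in Ws, and UGT71B6 followed at 0.969 with 0.69 and 0.26. TBL45 was closest to FYD at 0.979, and SWEET1, a sugar transporter gene, was next at 0.889. UGT72E1 was closest to AT5G20950 at 0.976. AT4G33720, also on the list of UGT72E1 at 0.940, had ABA differences of -1.19 in rop10-1 and -0.99 in Ws, against -1.22 and -2.23 for UGT72E1. AT1G53430, the third gene for TBL45 at 0.856, had -0.50 in rop10-1 and -0.84 in Ws. The fitted ABA differences of genes that followed a wall gene from replicate to replicate were thus of either sign. No call is given here for the increases.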
